A study of Mus musculus with 18 samples.

Results

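Young fat cells, the Day4 stage of 3T3-L1 adipogenesis, were compared with Control cells in 6 RNA-seq libraries, 3 of each, out of 18 libraries in the study. 3T3-L1 is an established mouse fibroblast line, selected as a clone, that differentiates into fat cells under inducers. Day4 cells were taken 4 days after the differentiation stimuli. Per the labels' protocols, cells held at confluence for 2 days (day 0) received 10 µg/mL insulin, 0.25 µM dexamethasone, a synthetic glucocorticoid, and 0.5 mM IBMX, a phosphodiesterase inhibitor, for 48 h. Medium with 5 µg/mL insulin followed and was renewed every 2 days. Control cells are the same line, and the labels do not say which medium they had, at which time they were taken or whether they had stopped dividing. Nor do they say whether Day4 is counted from the start or the end of the 48 h, or whether replicates were separate cultures, so p-values reflect the spread between libraries alone, which may be technical. The other 12 libraries come from Day6 and Day8 and from MCE1 and MCE2, 2 stages whose times are not given and whose name matches the mitotic clonal expansion of the study's title, the cell divisions that follow induction. Group membership was read from the sample titles, and 11946 genes of 25209 listed passed a filter of at least 1 TPM, transcript abundance as a share of the library, in at least 3 of the 6 libraries.

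Adipogenesis in this line runs as a cascade. The early factors C/EBP beta and C/EBP delta respond to the inducers and switch on C/EBP alpha and the nuclear receptor PPAR gamma, which then maintain each other and bind near the genes of lipid storage. A finished fat cell takes up fatty acids and glucose, joins fatty acids to glycerol as triglyceride, stores it in a coated droplet, releases it on hormonal demand and secretes hormones such as adiponectin. The fibroblast it comes from carries contractile stress fibres, makes interstitial matrix and divides.

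The identity of the groups was checked first with markers of fat cells. Adipoq (adiponectin) read 1304, 1419 and 1369 TPM in the Day4 libraries and was listed at 0 in each Control library. Plin1, the coat protein of the fat cell droplet, read 218, 223 and 245 TPM in the Day4 libraries and was listed at 0 in each Control library, and Cfd (adipsin) 724, 798 and 753 TPM in the Day4 libraries and was listed at 0 in each Control library. Fabp4, Cidec, Lpl, Slc2a4 and Cebpa, the other markers that were called, are described below, and Pparg was not called. Of the preadipocyte markers used for identity, Thy1 (76.5, 83.4 and 76.7 TPM at Day4, 297, 304 and 305 TPM in Control) and Ly6a (77.8, 68.6 and 49.5 TPM at Day4, 200.4, 113 and 123 TPM in Control) fell, Pdgfra rose, Dlk1 was not called, and Cd34 stayed under 1 TPM in all 6 libraries. Markers of other cell types were low except for cartilage and bone. Of 15 macrophage markers, 8 were listed at 0 in all 6 libraries, among them Adgre1 and Ptprc, and the list summed to 6.57 to 10.6 TPM at Day4 and 18.5 to 21 TPM in Control. Endothelial markers summed to 2.13 to 2.23 TPM at Day4 and 9.44 to 12.6 TPM in Control (6 of 14 at 0 throughout, among them Tie1), skeletal muscle markers to 3.93 to 4.82 TPM at Day4 and 8.41 to 10.2 TPM in Control (10 of 15 at 0, among them Myod1), and epithelial markers to 7.59 to 10.8 TPM at Day4 and 0.106 to 1.2 TPM in Control (4 of 14 at 0, among them Ocln). Cartilage and bone markers summed to 111 to 127 TPM at Day4 and 1188 to 1229 TPM in Control (1 of 15 at 0, Acan), and most of the Control sum was Spp1 (osteopontin, 68.9, 83.7 and 76.4 TPM at Day4 and 1103, 1118 and 1134 TPM in Control), a gene that has 11.6% of its 50-base stretches in common with other genes. The part of these markers in the results was not tested.

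Summed over all genes, the 6 libraries held 872319 to 880273 TPM each, and read depth is unknown because the files give no counts. The gene with the highest TPM was Fabp4 in each Day4 library (11217 to 11973 TPM) and Eef1a1, a translation factor, in each Control library (10617 to 10825 TPM). Pearson's r of log2(TPM + 1) across the tested genes, which are not independent replicates, was 0.978 to 0.990 within a group and 0.824 to 0.838 between the groups. Some zeros cannot be read as absence. Genes that most cells use, such as Hmgcs1 and Pmvk of cholesterol synthesis, were listed at 0 in all 6 libraries, and Rpl22, a ribosomal protein gene, in 5 of 6, so a 0 is reported only as listed at 0.

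Between Day4 and Control most genes that were measured differed. Of 11946 genes, 3590 (30.1%) were higher and 5000 (41.9%) lower at Day4 at an adjusted p under 0.05, so 71.9% were called (limma on log2(TPM + 1), Benjamini-Hochberg adjustment over all genes, n = 3 per group). The values of the 2 groups did not overlap for 9054 genes (75.8%). Of the called genes, 1513 were higher (12.7% of all tested) and 1878 lower (15.7%) by 1 or more on the log2 scale. Every list count below is to be read beside the 30.1% of all genes called higher and the 41.9% called lower. Over all genes the log2 fold change had a median of -0.14; scaling the libraries by median ratios moved it by 0.13 and the balance to 4228 higher and 4294 lower, so medians of gene lists are also given relative to all genes. TPM is a share of a library's RNA, so in these bulk samples fewer cells of a type and less RNA per cell cannot be told apart. Log2 fold changes are Day4 minus Control of log2(TPM + 1), a scale that compresses the ratio for genes with low TPM. Genes listed at 0 in a group enter list medians with a value that depends on the added 1. Such genes passed the filter through the other group alone, so the filter set their direction.

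**Figure D1:**
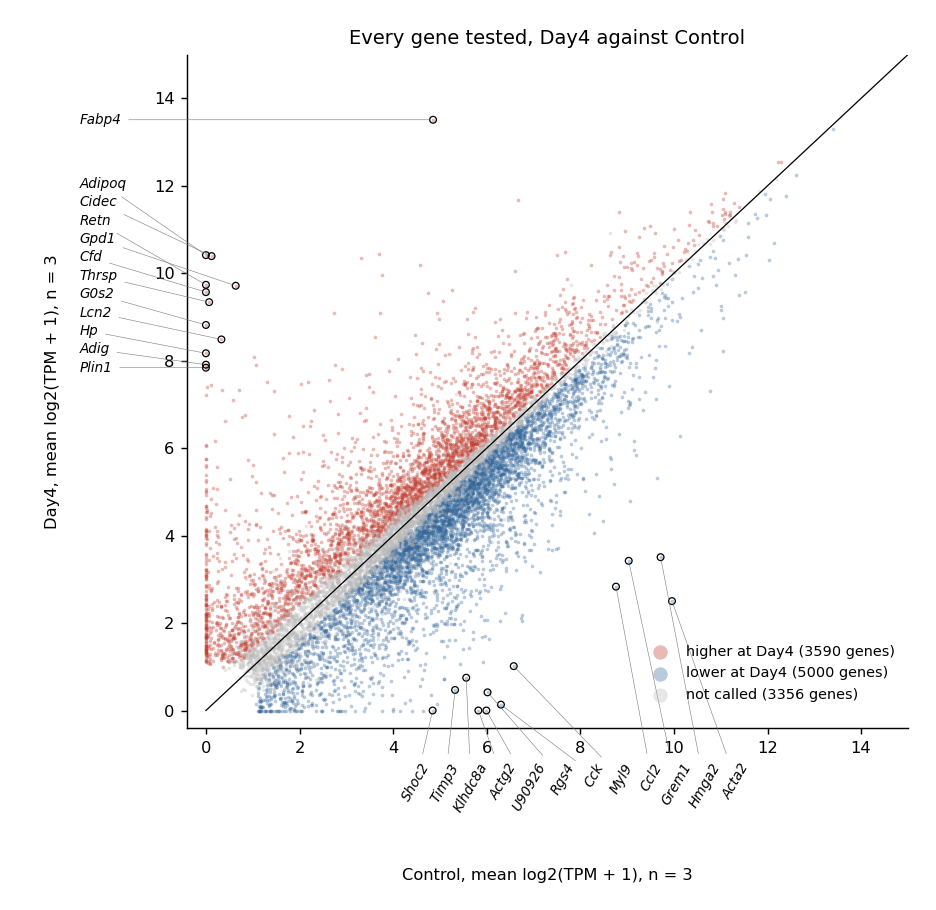
Mean log2(TPM + 1) of the 3 Day4 libraries (vertical axis) against that of the 3 Control libraries (horizontal axis) for the 11946 genes tested, with red points called higher at Day4 (3590), blue points called lower (5000) and grey points not called. The line marks equal values, and the 12 highest and 12 lowest genes of the naming rule are labelled, with Adipoq and Retn at 0 in Control and Actg2 and Shoc2 at 0 at Day4.

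The 12 genes with the highest log2 fold change by the naming rule were Adipoq, Cidec, Retn, Cfd, Thrsp, Gpd1, G0s2, Fabp4, Hp, Lcn2, Adig and Plin1, which belong to lipid storage or are secreted by fat cells. Adig (adipogenin), a small membrane protein of fat cells, read 253, 244 and 222 TPM in the Day4 libraries and was listed at 0 in each Control library. The 12 lowest were Acta2, Hmga2, Cck, U90926, Ccl2, Actg2, Grem1, Rgs4, Myl9, Timp3, Shoc2 and Klhdc8a. Hmga2, a chromatin protein of growing mesenchymal cells, read 13.7, 12.3 and 6.47 TPM in the Day4 libraries, against 892, 807 and 821 TPM in the Control libraries (log2 fold change -6.21, SE 0.24, adjusted p = 1.07e-06). Its 3 Day4 values lay far below every Control value. Cck, which encodes the peptide cholecystokinin, read 0, 0.323 and 0 TPM in the Day4 libraries, against 81.2, 79.7 and 73.3 TPM in the Control libraries, and Rgs4, a regulator of G protein signalling, 0, 0.777 and 0.335 TPM in the Day4 libraries, against 59.8, 63.3 and 68.5 TPM in the Control libraries. Klhdc8a averaged 0.681 ± 0.0280 TPM at Day4 and 46.3 ± 2.97 TPM in Control (SD, n = 3 each). U90926 was listed at 0 in each Day4 library and read 78.1, 56 and 56.3 TPM in Control. Shoc2, a scaffold of the Ras pathway, was also listed at 0 in each Day4 library and read 29.1, 18.6 and 39.3 TPM in Control; its position overlaps Bbip1, and whether its zeros are failed estimates was not tested.

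**Figure D2:**
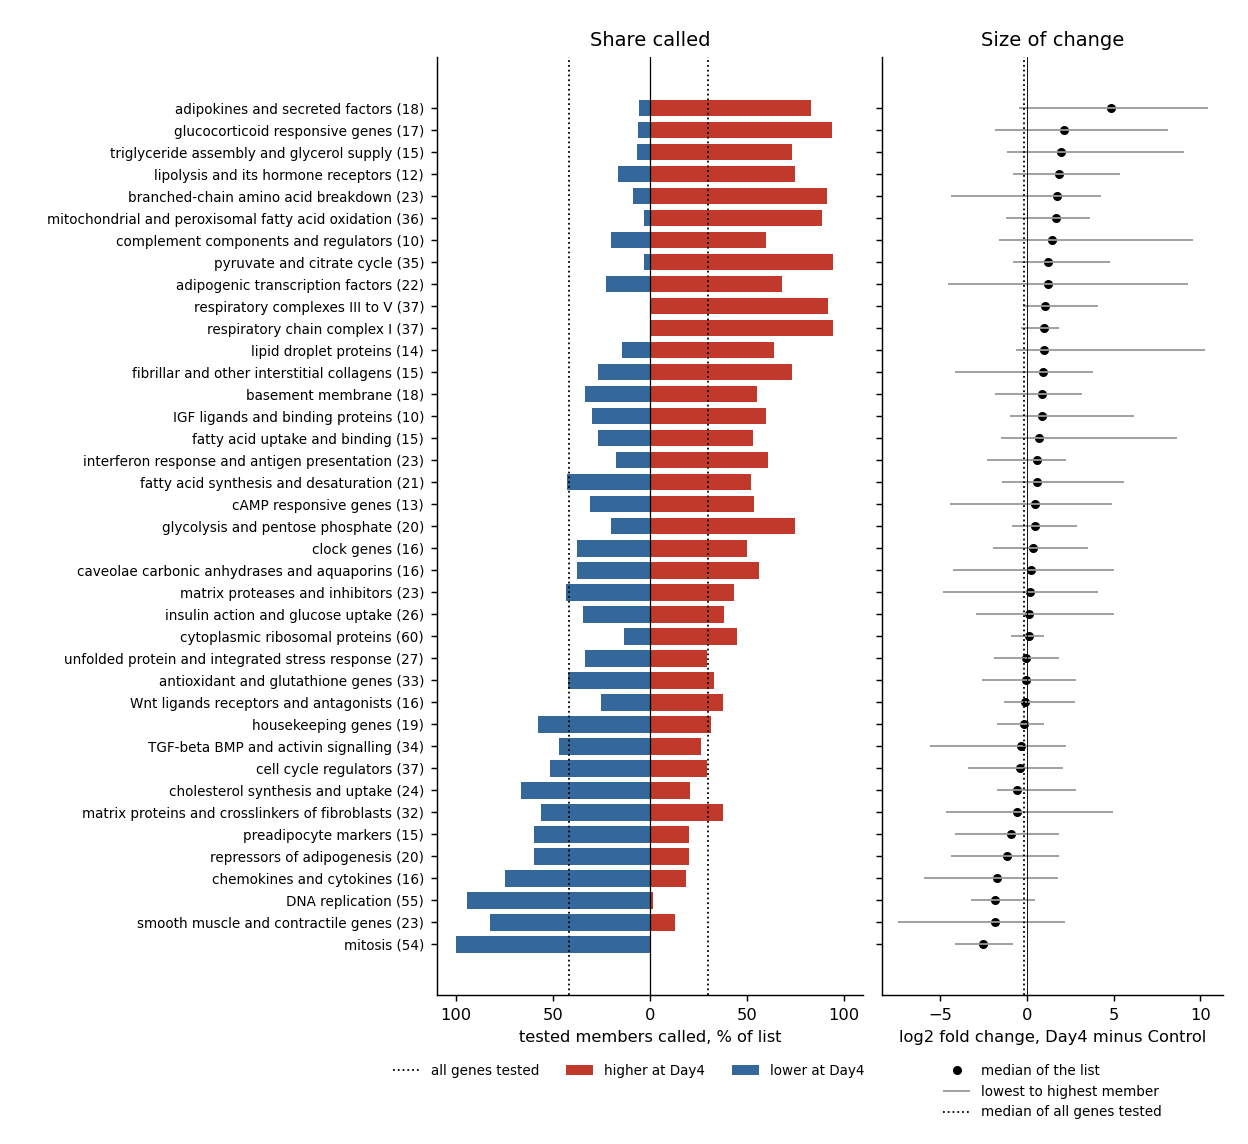
Gene lists with at least 10 tested members (number tested in brackets), ordered by median. Left, percent of tested members called higher (red, to the right) or lower (blue, to the left) at Day4, with dotted lines at the 30.1% and 41.9% of all genes. Right, median log2 fold change, Day4 minus Control (points), with lines spanning the lowest to the highest member and a dotted line at the median of all genes, -0.14. Adipokines lie at the top (4.82) and mitosis genes at the bottom (-2.53).

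Most members of a list of transcription factors and other regulators of adipogenesis were higher at Day4, while Pparg, the central receptor, was not called. Of 22 tested members 15 rose, 5 fell and 2 were not called, with a median log2 fold change of 1.2 (1.35 relative to all genes), where 30.1% of all genes rose. Cebpa (C/EBP alpha, chromosome 7, 35904312 to 35906947 in the mm9 build, as are all positions of the deposited values), the late factor of the cascade, read 188, 161 and 198 TPM in the Day4 libraries, against 3.80, 3.74 and 3.16 TPM in the Control libraries (log2 fold change 5.32, SE 0.10, adjusted p = 4.79e-08), a 51.1-fold ratio of means. Cebpd (C/EBP delta, chromosome 16, 15887379 to 15889638; its position overlaps Spidr) read 235, 222 and 225 TPM in the Day4 libraries, against 23.8, 22.3 and 23.5 TPM in the Control libraries (log2 fold change 3.24, SE 0.05, adjusted p = 2.27e-08), and Cebpb (C/EBP beta, chromosome 2, 167514415 to 167515932) 473, 663 and 537 TPM in the Day4 libraries, against 225, 299 and 206 TPM in the Control libraries (log2 fold change 1.2, SE 0.17, adjusted p = 0.000616). For the 3 genes every Day4 library stood above every Control library. Pparg (chromosome 6, 115310969 to 115440419) read 37.3, 40.0 and 19.5 TPM in the Day4 libraries, against 33, 29.5 and 32.1 TPM in the Control libraries. In Day4 replicates 1 and 2 the gene was above every Control library and in replicate 3 below, and it was not called (log2 fold change -0.03, SE 0.26, adjusted p = 0.921). Without Day4 replicate 3 it was called higher (log2 fold change 0.29, adjusted p = 0.0181), and over all alternatives the adjusted p ran from 0.0181 to 0.999. Gene-level TPM does not separate the PPAR gamma transcripts, which start at different promoters.

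Among the members that rose, Thrsp, a regulator of lipogenesis, read 626, 671 and 643 TPM in the Day4 libraries, against 0, 0 and 0.154 TPM in the Control libraries. Thrsp and Klf15 passed the filter through Day4 alone, so the filter set their direction. Nr1h3 (LXR alpha), a sterol-sensing nuclear receptor, read 60.8, 53.3 and 59.9 TPM in the Day4 libraries, against 4.67, 1.60 and 3.14 TPM in the Control libraries (log2 fold change 3.90, SE 0.27, adjusted p = 1.52e-05), and Srebf1 (SREBP1), which drives lipogenic enzymes, averaged 96.7 ± 4.42 TPM at Day4 and 32.3 ± 0.888 TPM in Control (SD, n = 3 each; log2 fold change 1.55, adjusted p = 4.82e-07), at a position that overlaps Rai1. Klf15, a glucocorticoid-induced factor, was listed at 0 in all 3 Control libraries and had 21.3, 19.5 and 18.4 TPM at Day4. Mlxipl (ChREBP), a glucose-sensing lipogenic factor, was listed at 0 in all 6 libraries. Against the majority, Id2, an inhibitor of helix-loop-helix factors, fell to 3.66 ± 1.05 TPM at Day4, against 107 ± 7.84 TPM in Control (log2 fold change -4.56), and Klf5 (-1.56 ± 0.11, log2 units ± SE) and Klf4 (-1.54 ± 0.07), early factors of the cascade, fell too.

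The list drawn up as repressors of adipogenesis showed the opposite balance. Whether each member represses adipogenesis in this line was not tested. Of 20 tested, 12 fell, 4 rose and 4 were not called, with a median of -1.17 (-1.03 relative to all genes, of which 41.9% fell). Etv4, a growth factor-responsive factor, read 1.04, 0.802 and 0.237 TPM in the Day4 libraries, against 35.9, 32.7 and 30.5 TPM in the Control libraries (log2 fold change -4.36, SE 0.19, adjusted p = 1.39e-06). Id3 averaged 31.5 ± 3.14 TPM at Day4 and 271 ± 6.80 TPM in Control (SD, n = 3 each; log2 fold change -3.07), and Runx1 (-2.86 ± 0.14), Klf7 (-2.01 ± 0.17) and Snai2 (-1.90 ± 0.08), the first a blood and mesenchymal factor and the last a factor of mesenchymal cells, fell as well. Foxo1, which insulin signalling keeps out of the nucleus, rose (1.87 ± 0.09), as did Tcf7l1 (1.28 ± 0.08), a nuclear partner of beta-catenin, and Zeb1 (0.82 ± 0.07). Zeb1 was not called when all 18 libraries shared 1 estimate of the spread. Gata2, a repressor in preadipocytes, read 0, 0 and 0.491 TPM at Day4 and 0, 0 and 0 TPM in Control and did not pass the filter, and Wnt10b, a Wnt ligand that blocks adipogenesis, read 0, 0.346 and 0 TPM at Day4 and 0, 0 and 0.173 TPM in Control.

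**Figure D3:**
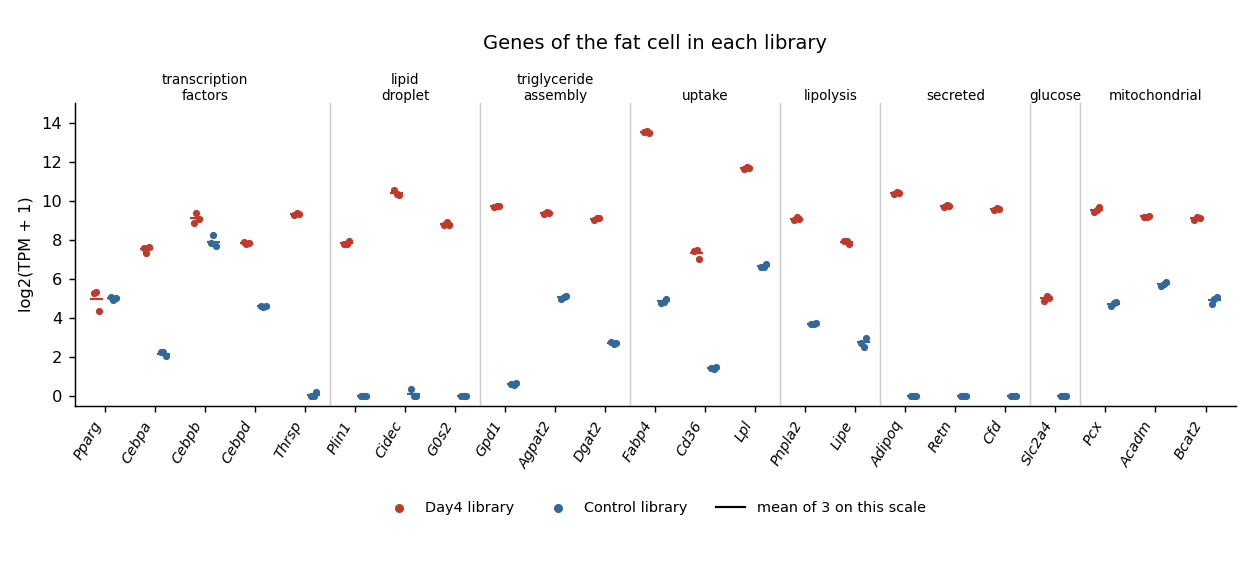
Log2(TPM + 1) of 23 genes of the fat cell in each library, grouped by role, with Day4 (red) left of Control (blue) for each gene, points for libraries and short lines for the mean of 3 on this scale. For 22 of the 23 every Day4 point lies above every Control point, and Pparg is the exception. Thrsp, a regulator of lipogenesis, is placed with the transcription factors.

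Cidec, G0s2 and Plin1, at or near 0 in Control, were abundant at Day4. All of these passed the filter through Day4 alone, so the filter set their direction and bears on the count and median that follow. Across all genes 30.1% rose and 41.9% fell. Of 14 tested droplet proteins 9 rose, 2 fell and 3 were not called, while 6 of 20 listed did not pass the filter, 4 of them listed at 0 in all 6 libraries (median 0.97, 1.11 relative to all genes), and the listed genes of the list summed to 4424 to 4618 TPM at Day4 against 1812 to 1912 TPM in Control. Cidec (chromosome 6, 113374628 to 113384758), which enlarges droplets by fusion, read 1506, 1290.5 and 1242 TPM in the Day4 libraries, against 0.286, 0 and 0 TPM in the Control libraries. G0s2, an inhibitor of the lipase that opens triglyceride breakdown, read 435, 478 and 439 TPM in the Day4 libraries and was listed at 0 in each Control library. Fitm2, which buds droplets from the endoplasmic reticulum, averaged 195 ± 21.7 TPM at Day4 and 22 ± 1.32 TPM in Control (8.89-fold), and Plin4 197 ± 14.9 TPM at Day4 and 29.4 ± 7.23 TPM in Control (6.69-fold). Pcyt1a, which makes the phospholipid shell (-0.61 ± 0.08), and Aup1 (-0.41 ± 0.05) fell by small amounts.

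Genes of triglyceride assembly mostly rose, where 30.1% of all genes rose and 41.9% fell. Of 15 tested genes 11 rose, 1 fell and 3 were not called, with a median of 1.94 (2.08 relative to all genes). Gpd1 (chromosome 15, 99548018 to 99555445; its position overlaps the gene model Gm16537), which turns a glycolytic intermediate into glycerol phosphate, read 811, 864 and 842 TPM in the Day4 libraries, against 0.567, 0.481 and 0.620 TPM in the Control libraries (log2 fold change 9.08, SE 0.06, adjusted p = 6.53e-10). The Day4 mean was 1509 times the Control mean. Agpat2, which adds the second fatty acid, averaged 658 ± 17.9 TPM at Day4 and 32.5 ± 1.74 TPM in Control (20.2-fold, log2 fold change 4.30). Dgat2, which adds the last, read 516, 563 and 553 TPM in the Day4 libraries, against 5.82, 5.47 and 5.60 TPM in the Control libraries (log2 fold change 6.36, SE 0.05, adjusted p = 2.13e-09), and Dgat1 averaged 286 ± 22.2 TPM at Day4 and 21.5 ± 1.83 TPM in Control (13.3-fold). Gpat3, which adds the first, rose by 3.81 ± 0.08. Pck1, an enzyme that lets fat cells make glycerol phosphate without glucose, was listed at 0 in Control and read 3.08, 2.84 and 2.19 TPM at Day4. Lpin2, a phosphatidate phosphatase, fell (-1.13 ± 0.10).

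The promoter windows of 4 called genes of the droplet and secreted lists show where an 8-base C/EBP-type sequence, TTGCNNAA on either strand, lies near the start of transcription. They are the 250 bases before the start in RefSeq (GRCm38.p6, another build than the deposited positions), written 5′ to 3′ on the strand of the gene with matches in capitals. They are the 2 members of each list with the largest called change whose window holds the sequence, so they were chosen by the match and after the values were seen. The match lay 198 bases before the start in Cidec, 187 and 58 in Plin1, 216 in Lcn2 and 99 in Saa3.
Cidec, chr6:113434765-113435014, minus strand: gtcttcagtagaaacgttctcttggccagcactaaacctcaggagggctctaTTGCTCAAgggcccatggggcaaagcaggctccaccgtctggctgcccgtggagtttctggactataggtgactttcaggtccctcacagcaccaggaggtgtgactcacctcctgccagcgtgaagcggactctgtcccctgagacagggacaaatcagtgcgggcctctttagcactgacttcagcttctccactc
Plin1, chr7:79732777-79733026, minus strand: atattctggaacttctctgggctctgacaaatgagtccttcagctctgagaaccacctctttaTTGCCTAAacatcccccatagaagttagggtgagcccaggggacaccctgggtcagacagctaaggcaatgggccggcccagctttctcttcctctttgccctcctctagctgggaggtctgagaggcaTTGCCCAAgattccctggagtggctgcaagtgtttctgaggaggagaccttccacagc
Lcn2, chr2:32387740-32387989, minus strand: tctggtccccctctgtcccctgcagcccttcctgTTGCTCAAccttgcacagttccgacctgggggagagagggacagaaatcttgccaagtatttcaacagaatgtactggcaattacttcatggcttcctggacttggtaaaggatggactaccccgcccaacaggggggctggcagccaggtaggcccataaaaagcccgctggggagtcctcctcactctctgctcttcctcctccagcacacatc
Saa3, chr7:46715677-46715926, minus strand: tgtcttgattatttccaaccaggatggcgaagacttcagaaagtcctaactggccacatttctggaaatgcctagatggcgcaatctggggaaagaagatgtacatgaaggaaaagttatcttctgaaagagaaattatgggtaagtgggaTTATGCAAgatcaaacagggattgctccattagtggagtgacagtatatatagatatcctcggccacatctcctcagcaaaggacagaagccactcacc
The sequence occurred in 3 of 19 windows of the droplet list (15.8%), 2 of 17 of the triglyceride list (11.8%) and 3 of 13 of the secreted list (23.1%), against 9.56% of all 32851 windows. A gene can have more than 1 window, and these lists had windows for 13, 11 and 13 genes. A PPAR element (a pair of AGGTCA hexamers 1 base apart, on either strand) was in 0 windows of these lists and in 0.0335% of all windows. Such matches describe the letters of the window and do not show binding.

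Genes of fatty acid synthesis moved both ways. Of 21 tested genes 11 rose and 9 fell (median 0.58, 0.72 relative to all genes). Of all genes 30.1% rose and 41.9% fell. Fasn, the fatty acid synthase, averaged 254 ± 16.7 TPM at Day4 and 169 ± 8.06 TPM in Control (1.5-fold, log2 fold change 0.58, SE 0.06, adjusted p = 0.000103). Scd1, which makes oleate-type fatty acids, read 990.4, 1162 and 1022 TPM in the Day4 libraries, against 94.2, 94.8 and 102 TPM in the Control libraries (log2 fold change 3.43, SE 0.07, adjusted p = 5.31e-08). Acsl1, which activates fatty acids with coenzyme A in fat cells, averaged 1164 ± 49.5 TPM at Day4 and 23 ± 1.2 TPM in Control (50.7-fold). Acacb, the acetyl-CoA carboxylase isoform at mitochondria, rose (1.52 ± 0.13), as did Mlycd, which degrades its product (2.06 ± 0.12). Elovl6, an elongase (-1.43 ± 0.07), Fads1, a desaturase of polyunsaturated fatty acids (-0.91 ± 0.05), and Fads3 (-1.02 ± 0.06) fell.

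Of 15 tested genes of fatty acid uptake and binding 8 rose, 4 fell and 3 were not called (median 0.72, 0.86 relative to all genes). Across all genes 30.1% rose and 41.9% fell. Fabp4 (chromosome 3, 10204343 to 10208616), the cytoplasmic fatty acid carrier, read 11806, 11973 and 11217 TPM in the Day4 libraries, against 26.2, 27.3 and 30.5 TPM in the Control libraries (log2 fold change 8.66, SE 0.06, adjusted p = 6.53e-10). Its mean was 417 times that of Control. Lpl (chromosome 8, 71404454 to 71430831), which frees fatty acids from lipoproteins, read 3137, 3423 and 3322 TPM in the Day4 libraries, against 98, 97.7 and 107 TPM in the Control libraries (log2 fold change 5.02, SE 0.05, adjusted p = 3.53e-09), and Cd36, a membrane transporter, 170.4, 176 and 131 TPM in the Day4 libraries, against 1.74, 1.65 and 1.87 TPM in the Control libraries (log2 fold change 5.85, SE 0.12, adjusted p = 6.02e-08). Slc27a1, another transporter, was listed at 0 in Control and read 35.7, 38.6 and 35.3 TPM at Day4. The acyl-CoA synthetases Acsl3 (-1.5 ± 0.14), Acsl4 (-1.18 ± 0.17) and Acsl5 (-1.11 ± 0.06) fell, opposite to Acsl1.

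Genes of lipolysis, the release of stored fatty acids, mostly rose as well, where 30.1% of all genes rose and 41.9% fell. Of 12 tested genes 9 rose, 2 fell and 1 was not called (median 1.83, 1.97 relative to all genes), while 8 members did not pass the filter, among them Mgll, which is listed at 0 in all 6 libraries. Pnpla2, the triglyceride lipase that G0s2 inhibits, read 523, 569.9 and 543 TPM in the Day4 libraries, against 11.8, 11.9 and 12.6 TPM in the Control libraries (log2 fold change 5.38, SE 0.05, adjusted p = 2.73e-09). Lipe, hormone-sensitive lipase, read 249, 244 and 220.4 TPM in the Day4 libraries, against 5.72, 4.83 and 6.97 TPM in the Control libraries (log2 fold change 5.14, SE 0.12, adjusted p = 8.92e-08). The lactate and ketone body receptors that restrain lipolysis, Hcar1 (9.68, 12.2 and 11.2 TPM at Day4) and Hcar2 (7.45, 9.80 and 6.84 TPM), and the short-chain fatty acid receptor Ffar2 (4.58, 4.10 and 4.28 TPM), were each listed at 0 in all Control libraries. These receptors count among the 9 that rose, but they passed the filter through Day4 alone, so the filter set their direction. The protein kinase A subunit Prkar2b fell by a small amount (-0.30 ± 0.05), as did Prkar1a (-0.78 ± 0.30, adjusted p = 0.0488), whose Day4 values of 1.32, 0.439 and 0 TPM overlapped the Control values of 1.69, 1.74 and 1.30 TPM. The Prkar1a call was lost without Day4 replicate 2 (adjusted p = 0.111) or 3 (0.110), or without any single Control library (0.075 to 0.118), and its adjusted p over all alternatives ran from 0.00322 to 0.118.

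Secreted factors of fat cells mostly rose, where 30.1% of all genes rose. Of 18 tested adipokines and secreted proteins 15 rose, 1 fell and 2 were not called (median 4.82, 4.96 relative to all genes), and the list summed to 5781 to 6254 TPM at Day4 against 172 to 192 TPM in Control. Members at or near 0 in Control passed the filter through Day4 alone, so the filter and the added 1 bear on this median. Of the 5 members that did not pass, 3 were listed at 0 in all 6 libraries. Retn (resistin) read 832, 882 and 840.1 TPM in the Day4 libraries and was listed at 0 in each Control library. Hp (haptoglobin), which binds free haemoglobin, read 273, 292 and 297 TPM in the Day4 libraries and was listed at 0 in each Control library, and Lcn2 (lipocalin 2, chromosome 2, 32240157 to 32243259), an iron and lipid carrier, 339, 389 and 347 TPM in the Day4 libraries, against 0.486, 0 and 0.340 TPM in the Control libraries. Lep (leptin), the hormone of fat mass, read 0, 0.199 and 0.0957 TPM at Day4 and 0, 0 and 0 TPM in Control and did not pass the filter. Nnat, an imprinted membrane protein, was the member that fell (2.34, 2.27 and 2.47 TPM at Day4, 3.60, 3.11 and 4.47 TPM in Control, adjusted p = 0.017), and its call was lost without Control replicate 3 (adjusted p = 0.0514; 0.00882 to 0.0587 over all alternatives). Among complement genes 6 of 10 tested rose and 2 fell (median 1.45), where 30.1% of all genes rose and 41.9% fell. C3, the central complement protein and substrate of the pathway that adipsin activates, read 1259.8, 1259.8 and 1360.3 TPM in the Day4 libraries, against 7.86, 8.67 and 10.5 TPM in the Control libraries (log2 fold change 7.02, SE 0.09, adjusted p = 1.69e-08). Clu (clusterin) rose (3.16 ± 0.16), while Serping1, an inhibitor of the first complement proteases, fell to 0, 0.517 and 0.686 TPM at Day4, against 2.91, 3.54 and 3.08 TPM in Control.

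Genes of insulin action moved both ways. Of 26 tested 10 rose, 9 fell and 7 were not called, where 30.1% of all genes rose and 41.9% fell. The median was 0.11 (0.26 relative to all genes). Under median-ratio scaling and under quantile normalization 13 rose and 9 fell. Slc2a4, the insulin-responsive glucose transporter of fat and muscle, was listed at 0 in all 3 Control libraries and had 28.2, 34.4 and 31.8 TPM at Day4. Ppp1r3c, which targets a phosphatase to glycogen, averaged 167 ± 6.49 TPM at Day4 and 10.3 ± 2.00 TPM in Control (16.3-fold), and the phosphoinositide 3-kinase subunit Pik3r1 rose (2.33 ± 0.08). Grb14, which binds and inhibits the insulin receptor, fell to 7.14 ± 1.04 TPM at Day4, against 60.2 ± 0.692 TPM in Control (log2 fold change -2.92), and the kinase subunit Pik3cb (-1.91 ± 0.13) and the hexokinase Hk1 (-0.99 ± 0.08) fell. In glycolysis and the pentose phosphate pathway 15 of 20 tested genes rose and 4 fell (median 0.45, 0.59 relative to all genes). Taldo1, of the pentose phosphate pathway, averaged 553 ± 21.7 TPM at Day4 and 149.8 ± 4.46 TPM in Control (3.69-fold) and Aldoa, an aldolase, 1573 ± 345 TPM at Day4 and 455 ± 51.6 TPM in Control (3.45-fold). Pkm (-0.85 ± 0.05) and Eno1 (-0.85 ± 0.04) fell, and because 25.8% of the 50-base stretches of Pkm and 26.0% of those of Eno1 occur in other genes, their values are uncertain.

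Mitochondrial genes mostly rose in each pathway listed, where 30.1% of all genes rose and 41.9% fell. Of 35 genes of pyruvate use and the citrate cycle 33 rose and 1 fell (median 1.2, 1.35 relative to all genes). Pcx, pyruvate carboxylase, which replenishes the cycle, read 684, 745 and 826 TPM in the Day4 libraries, against 23.2, 26.7 and 27.2 TPM in the Control libraries (log2 fold change 4.81, SE 0.09, adjusted p = 4.77e-08); its position overlaps Lrfn4. Mpc2, of the mitochondrial pyruvate carrier, averaged 493 ± 14.9 TPM at Day4 and 76.9 ± 3.34 TPM in Control (6.41-fold), and Slc25a10, the dicarboxylate carrier, 195 ± 10.0 TPM at Day4 and 30.6 ± 0.959 TPM in Control (6.37-fold). Pdk2, a kinase that inhibits pyruvate dehydrogenase, rose (2.41 ± 0.11), whereas Pdk3, another, fell (-0.78 ± 0.07).

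Of 36 tested genes of fatty acid oxidation 32 rose, 1 fell and 3 were not called (median 1.67, 1.82 relative to all genes). Acadm, the medium-chain dehydrogenase, read 582, 583 and 593 TPM in the Day4 libraries, against 49.7, 52.3 and 55.5 TPM in the Control libraries (log2 fold change 3.46, SE 0.05, adjusted p = 1.53e-08). Pex11a, which multiplies peroxisomes, averaged 72.4 ± 9.97 TPM at Day4 and 4.88 ± 0.150 TPM in Control (14.8-fold), and Cpt2 and Acadvl rose by 2.38 ± 0.05 and 2.36 ± 0.04. Cpt1a, which admits long-chain fatty acids to mitochondria, was the member that fell, to 36.5, 29.7 and 35.9 TPM at Day4, against 75.8, 79 and 84.7 TPM in Control (log2 fold change -1.21). In respiratory complex I 35 of 37 tested subunits rose and 0 fell (median 1.0), with Ndufv3 averaging 399 ± 22.3 TPM at Day4 and 111 ± 3.57 TPM in Control (3.61-fold). In complexes III to V 34 of 37 rose and 0 fell (median 1.05), with Uqcrfs1, the iron-sulphur subunit of complex III, averaging 426 ± 14 TPM at Day4 and 136 ± 5.46 TPM in Control (3.14-fold). Cox8b, a complex IV isoform of muscle and brown fat, was listed at 0 in Control and read 14.9, 18.5 and 16.2 TPM at Day4, and Cox7a1 read 20.2, 20.5 and 14.3 TPM in the Day4 libraries, against 0.920, 0 and 1.15 TPM in the Control libraries.

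Breakdown of branched-chain amino acids, which feeds lipid synthesis in fat cells, rose in 21 of 23 tested genes and fell in 2 (median 1.74, 1.88 relative to all genes). The transaminases that start it moved apart. Bcat2, the mitochondrial form, read 516, 574 and 553 TPM in the Day4 libraries, against 25.2, 30.4 and 33.4 TPM in the Control libraries (log2 fold change 4.17, SE 0.10, adjusted p = 1.27e-07), whereas Bcat1, the cytosolic form, read 2.41, 1.77 and 2.23 TPM in the Day4 libraries, against 67.1, 64.8 and 62.7 TPM in the Control libraries (log2 fold change -4.40, SE 0.10, adjusted p = 8.83e-08). Downstream, Dbt and Bckdhb of the branched-chain dehydrogenase rose by 3.39 ± 0.17 and 2.64 ± 0.05 and Aldh6a1, of valine breakdown, by 4.25 ± 0.11. Bckdk, the kinase that inhibits the dehydrogenase, fell by a small amount (-0.21 ± 0.05), a call lost under median-ratio scaling and quantile normalization. Of 18 markers of brown and beige fat 12 did not pass the filter and 6, among them Ucp1, Cidea and Prdm16, were listed at 0 in all 6 libraries. The 6 that passed include Cox8b and Cox7a1 and the potassium channel Kcnk3 (50.3 ± 1.38 TPM at Day4 and 10.5 ± 1.29 TPM in Control), and 4 of them rose. Across all genes 30.1% rose. Cox8b passed the filter through Day4 alone, so the filter set its direction.

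Glucocorticoid responsive genes stood above Control at Day4. Of 17 tested 16 rose and 1 fell, with a median of 2.12 (2.26 relative to all genes). Per the labels dexamethasone was given for 48 h, and the hours between its removal and the Day4 sample are not stated. Tsc22d3 (GILZ), a glucocorticoid-induced inhibitor of inflammation, read 375, 381 and 396 TPM in the Day4 libraries, against 18.5, 27.1 and 18.7 TPM in the Control libraries (log2 fold change 4.12, SE 0.14, adjusted p = 5.9e-07). Zbtb16, a zinc finger factor, read 16.1, 13.1 and 14.6 TPM in the Day4 libraries, against 0.105, 0.279 and 0.229 TPM in the Control libraries (log2 fold change 3.69, SE 0.13, adjusted p = 4.48e-07), and Sult1a1, a sulphotransferase, 159, 178 and 147 TPM in the Day4 libraries, against 0.435, 0 and 0.428 TPM in the Control libraries. Glul, glutamine synthetase, averaged 783 ± 38.8 TPM at Day4 and 37.1 ± 0.167 TPM in Control (21.1-fold), and 11.9% of its 50-base stretches occur in other genes too. Anxa1 (annexin A1) fell (566 ± 9.53 TPM at Day4 and 2059.6 ± 48.7 TPM in Control). In the cAMP list 7 of 13 tested genes rose and 4 fell (median 0.47), where 30.1% of all genes rose and 41.9% fell. Rgs2, a brake on G protein signalling, averaged 224 ± 3.79 TPM at Day4 and 6.50 ± 0.673 TPM in Control (34.5-fold), and Pde3b, the phosphodiesterase through which insulin restrains lipolysis, rose (2.12 ± 0.12). Ptgs2 (cyclooxygenase 2), an early response gene, read 0, 0.409 and 0.517 TPM in the Day4 libraries, against 32.5, 24.5 and 25 TPM in the Control libraries.

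Contractile genes fell together, and the smooth muscle actin of fibroblasts had the lowest log2 fold change named. Of 23 tested 19 fell, 3 rose and 1 was not called, with a median of -1.86 (-1.72 relative to all genes), and the list summed to 1242 to 1272 TPM at Day4 against 6272 to 6769 TPM in Control. Acta2 (chromosome 19, 34314826 to 34329863) read 5.30, 4.80 and 3.97 TPM in the Day4 libraries, against 1073, 981 and 933 TPM in the Control libraries (log2 fold change -7.46, SE 0.10, adjusted p = 1.3e-08). Its Control mean was 212 times the Day4 mean. Myl9, a myosin light chain, read 1.13, 1.35 and 0.644 TPM in the Day4 libraries, against 102, 91.2 and 90.8 TPM in the Control libraries (log2 fold change -5.56, SE 0.15, adjusted p = 1.29e-07), and Tagln (transgelin), an actin-binding protein whose position overlaps Pcsk7, 3.58, 3.27 and 3.06 TPM in the Day4 libraries, against 119, 102 and 96 TPM in the Control libraries (log2 fold change -4.63, SE 0.10, adjusted p = 6.97e-08). Actg2, the enteric smooth muscle actin, was listed at 0 in each Day4 library and read 58.3, 54 and 54.4 TPM in Control. Tnnt2, a troponin, averaged 1.16 ± 0.107 TPM at Day4 and 59.6 ± 4.36 TPM in Control. The members that rose were Mylk, myosin light chain kinase (41.5 ± 1.49 TPM at Day4 and 8.30 ± 1.39 TPM in Control), Des (desmin, 1.88 ± 0.13) and Myh11, a smooth muscle myosin listed at 0 in Control and at 2.67, 2.90 and 3.37 TPM at Day4. Actb, the cytoplasmic actin often used as a reference gene, also fell (1266 ± 41.8 TPM at Day4 and 4173 ± 183 TPM in Control, log2 fold change -1.72).

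The windows of Myl9 and Cnn2, a calponin of the same list (156 ± 8.69 TPM at Day4 and 667 ± 17.7 TPM in Control), show a CArG box, the 10-base site of serum response factor, in capitals. They were chosen as above, and the boxes lie 161 and 56 bases before the start.
Myl9, chr2:156775214-156775463, plus strand: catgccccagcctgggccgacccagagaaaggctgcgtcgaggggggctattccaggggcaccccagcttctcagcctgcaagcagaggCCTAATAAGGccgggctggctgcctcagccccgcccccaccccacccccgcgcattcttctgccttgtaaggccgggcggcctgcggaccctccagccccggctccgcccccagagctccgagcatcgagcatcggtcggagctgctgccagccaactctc
Cnn2, chr10:79988350-79988599, plus strand: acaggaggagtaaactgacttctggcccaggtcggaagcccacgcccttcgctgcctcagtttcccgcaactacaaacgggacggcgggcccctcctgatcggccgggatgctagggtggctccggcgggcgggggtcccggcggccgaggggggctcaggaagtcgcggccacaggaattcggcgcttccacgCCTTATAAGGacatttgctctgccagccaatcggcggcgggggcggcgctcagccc
A CArG box, searched on both strands, was in 4 of 25 windows of the contractile list (16%) and in 1.47% of all windows. The 25 windows came from 20 genes.

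Interstitial collagens rose more often than they fell, in contrast to other matrix proteins of fibroblasts. Of 15 tested collagen genes 11 rose and 4 fell (median 0.95, 1.09 relative to all genes). The counts were the same under median-ratio scaling. Under quantile normalization and in a fit of all 18 libraries 8 rose and 4 fell. Col3a1, a fibrillar collagen of soft tissue, read 2606, 2644 and 2860.4 TPM in the Day4 libraries, against 403, 449 and 506 TPM in the Control libraries (log2 fold change 2.58, SE 0.08, adjusted p = 4.48e-07), and Col6a3, which surrounds fat cells, averaged 801 ± 131 TPM at Day4 and 198 ± 12.7 TPM in Control (4.05-fold). Col1a1, the main fibrillar collagen, read 1400.0, 1446 and 1540.4 TPM in the Day4 libraries, against 1182, 1209 and 1313 TPM in the Control libraries (log2 fold change 0.24, adjusted p = 0.00471). The groups did not overlap, and the call was lost under quantile normalization and when all 18 libraries were fitted. Col8a1, a short-chain collagen, fell to 0.180, 0.130 and 0.217 TPM at Day4, against 21.2, 18 and 19.6 TPM in Control, and Col12a1 fell (-2.41 ± 0.10). In the basement membrane, a thin matrix layer that encloses each fat cell, 10 of 18 genes rose and 6 fell (median 0.86). For all genes the shares were 30.1% higher and 41.9% lower. Nid2, a linker of laminin and collagen, averaged 51.2 ± 4.31 TPM at Day4 and 4.72 ± 0.558 TPM in Control (10.8-fold) and Col4a1 1342 ± 91.2 TPM at Day4 and 481 ± 24 TPM in Control (2.79-fold), while Npnt (-1.87 ± 0.18) and Hspg2 (perlecan, -0.79 ± 0.08) fell.

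Of 32 matrix proteins and crosslinkers of fibroblasts 18 fell, 12 rose and 2 were not called (median -0.58, -0.44 relative to all genes). Tnc, tenascin C of wound matrix, was listed at 0 in each Day4 library and read 20.7, 18 and 37 TPM in Control, and Thbs1 (thrombospondin) averaged 14.1 ± 3.90 TPM at Day4 and 158 ± 13.2 TPM in Control. Dcn, Lum and Ogn, small proteoglycans that regulate collagen fibrils, rose. Dcn (decorin) averaged 497 ± 24.4 TPM at Day4 and 47.7 ± 10.8 TPM in Control (10.4-fold) and Lum (lumican) read 29.7, 37.8 and 32.5 TPM in the Day4 libraries, against 0, 0.221 and 0.139 TPM in the Control libraries. Ogn, whose position overlaps Cenpp, averaged 98.2 ± 4.81 TPM at Day4 and 3.74 ± 0.588 TPM in Control. Proteases and their inhibitors divided evenly, with 10 of 23 higher and 10 lower (11 and 10 under both scalings). Of all genes 30.1% were higher and 41.9% lower. The metalloprotease inhibitors Timp1 (61.7 ± 11.2 TPM at Day4 and 565 ± 36.5 TPM in Control) and Timp3 (0.183, 0.376 and 0.635 TPM at Day4, 40.1, 36.4 and 40.8 TPM in Control) fell, at positions that overlap Syn1 and Syn3, while Timp4, the adipose-rich member, read 9.53, 9.65 and 10.4 TPM in the Day4 libraries, against 0, 0 and 0.128 TPM in the Control libraries. Plaur, the urokinase receptor, fell (-4.71 ± 0.14) and the protease Adamts12 rose (4.09 ± 0.11).

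**Figure D4:**
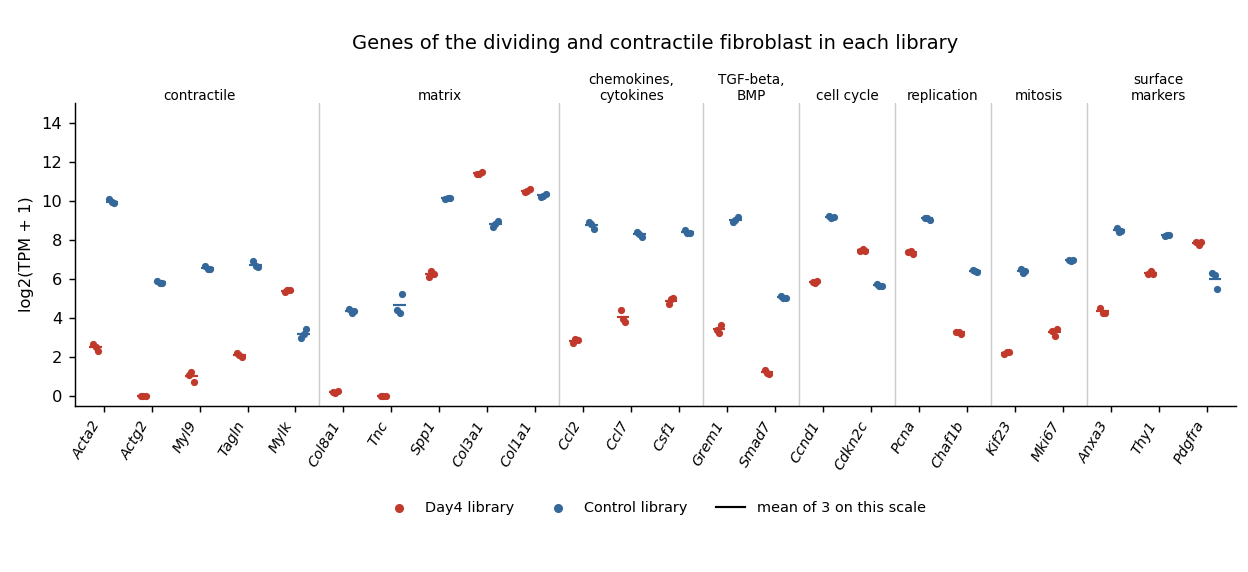
Log2(TPM + 1) of 24 genes of the dividing and contractile fibroblast in each library, grouped by role, with Day4 (red) left of Control (blue), points for libraries and short lines for the mean of 3 on this scale. Day4 lies below Control for 19 genes, with Actg2 and Tnc at 0, and above it for Mylk, Col3a1, Col1a1, Cdkn2c and Pdgfra.

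Chemokines and cytokines mostly fell. Of 16 tested 12 fell, 3 rose and 1 was not called (median -1.75, -1.61 relative to all genes), and 17 of the 33 listed did not pass the filter. Ccl2, which attracts monocytes (chromosome 11, 81849079 to 81850954), read 5.52, 6.54 and 6.36 TPM in the Day4 libraries, against 488, 442 and 377 TPM in the Control libraries (log2 fold change -5.93, SE 0.11, adjusted p = 4.39e-08), Ccl7, a related chemokine, 20.4, 14.5 and 13 TPM in the Day4 libraries, against 341, 314 and 287 TPM in the Control libraries, and Csf1, the growth factor of macrophages, averaged 28.9 ± 3.28 TPM at Day4 and 339 ± 18.1 TPM in Control (11.7-fold lower at Day4). Cxcl12, a chemokine of stromal cells, rose by a small amount (1041 ± 13.8 TPM at Day4 and 854 ± 20.8 TPM in Control, log2 fold change 0.29; 0.04 and not called under quantile normalization), and Kitl, the KIT ligand, rose (0.66 ± 0.07). In the TGF-beta, BMP and activin list 16 of 34 fell and 9 rose (median -0.36, -0.22 relative to all genes), near the 41.9% and 30.1% of all genes. Grem1 (gremlin), a secreted BMP inhibitor, read 9.45, 8.53 and 11.4 TPM in the Day4 libraries, against 483, 515 and 576 TPM in the Control libraries (log2 fold change -5.61, SE 0.11, adjusted p = 5.78e-08). Inhba, the activin A subunit, averaged 0.484 ± 0.0905 TPM at Day4 and 23 ± 1.51 TPM in Control, and the inhibitory Smads Smad7 (-3.85 ± 0.10) and Smad6 (-2.49 ± 0.08) fell. Fst (follistatin), which binds activin, rose (80.5 ± 3.31 TPM at Day4 and 16.3 ± 2.81 TPM in Control).

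In the Wnt list 6 of 16 tested genes rose and 4 fell, where 30.1% of all genes rose and 41.9% fell. The median of -0.11 became 0.03 under median-ratio scaling and 0.04 under quantile normalization, and 20 of 36 members did not pass the filter. The receptors Fzd4 (2.80 ± 0.19) and Lrp5 (2.10 ± 0.11) rose, while Sfrp2, a secreted antagonist (-1.30 ± 0.10), and Ctnnb1 (beta-catenin, -0.73 ± 0.04) fell. Of 10 tested IGF ligands, receptors and binding proteins 6 rose and 3 fell. Igfbp4, a binding protein secreted by adipose cells, read 948, 1008 and 1023 TPM in the Day4 libraries, against 11.5, 11.9 and 14.8 TPM in the Control libraries (log2 fold change 6.18, SE 0.09, adjusted p = 2.34e-08). Its Day4 mean was 77.9 times that of Control.

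Preadipocyte markers were not uniformly lost. Of 15 tested 9 fell, 3 rose and 3 were not called (median -0.93, -0.79 relative to all genes). Across all genes 41.9% fell and 30.1% rose. Anxa3 averaged 19.4 ± 2.13 TPM at Day4 and 358 ± 26.9 TPM in Control (18.5-fold lower at Day4), and Cd44, a hyaluronan receptor, 38.8 ± 2.24 TPM at Day4 and 267 ± 7.82 TPM in Control (6.89-fold lower). Pdgfra, the receptor that marks fibroblast progenitors, rose and read 234, 213 and 234 TPM in the Day4 libraries, against 78.3, 73.9 and 43.9 TPM in the Control libraries (log2 fold change 1.82, SE 0.21, adjusted p = 0.000205), whereas Pdgfrb fell (-1.53 ± 0.12). Dlk1 (preadipocyte factor 1), a membrane protein that holds back adipogenesis, read 0, 9.09 and 10.5 TPM in the Day4 libraries, against 11.7, 30.4 and 25.8 TPM in the Control libraries, and was not called (log2 fold change -2.17, adjusted p = 0.079). It was called lower when all 18 libraries were fitted (adjusted p = 0.0194), without Day4 replicate 1 (log2 fold change -1.03, adjusted p = 0.0491) and without Day4 replicate 3 (-2.79, adjusted p = 0.0454), and the adjusted p over all alternatives ran from 0.0136 to 0.201. Pi16 (1.44 ± 0.23) and Gsn (gelsolin, 0.98 ± 0.07) rose.

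The machinery of cell division was lower at Day4 in nearly every gene listed. Of 54 tested mitosis genes 54 fell and 0 rose, with a median of -2.53 (-2.39 relative to all genes), and their sum was 785 to 798 TPM at Day4 against 4658 to 4881 TPM in Control. Of 55 replication genes 52 fell, 1 rose and 2 were not called (median -1.82, -1.68 relative to all genes), with a sum of 1551 to 1591 TPM at Day4 against 4947 to 5203 TPM in Control. Mki67 (Ki-67, chromosome 7, 142881471 to 142908062), the marker of cycling cells, read 9.22, 7.56 and 9.91 TPM in the Day4 libraries, against 124, 121 and 126 TPM in the Control libraries (log2 fold change -3.66, SE 0.10, adjusted p = 1.3e-07). Kif23, a kinesin of cell separation, averaged 3.70 ± 0.247 TPM at Day4 and 83.4 ± 5.24 TPM in Control (22.5-fold lower at Day4) and Anln (anillin) 11.7 ± 0.773 TPM at Day4 and 166 ± 5.91 TPM in Control (14.2-fold lower).

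Among replication genes Pcna, the sliding clamp, read 163, 169.9 and 157 TPM in the Day4 libraries, against 563, 558 and 519 TPM in the Control libraries (log2 fold change -1.74, SE 0.05, adjusted p = 1.69e-07), though 19.1% of its 50-base stretches occur in other genes too. Chaf1b, which loads histones behind the fork, averaged 8.61 ± 0.387 TPM at Day4 and 84.6 ± 2.12 TPM in Control (9.83-fold lower at Day4), Clspn (claspin) 2.91 ± 0.201 TPM at Day4 and 28.7 ± 0.735 TPM in Control and Dnmt1, the maintenance DNA methyltransferase, 9.93 ± 2.07 TPM at Day4 and 80.7 ± 4.96 TPM in Control. Orc5, an origin recognition subunit, was the member that rose (0.45 ± 0.06). Of 37 cell cycle regulators 19 fell, 11 rose and 7 were not called (median -0.41, -0.27 relative to all genes), where 41.9% of all genes fell and 30.1% rose. Ccnd1 (cyclin D1, chromosome 7, 152115836 to 152125830), which drives entry into the cycle, read 56.7, 53.7 and 59.2 TPM in the Day4 libraries, against 603, 561 and 572 TPM in the Control libraries (log2 fold change -3.33, SE 0.05, adjusted p = 2.27e-08), while the repressors of the E2F family E2f7 (-3.42 ± 0.27) and E2f8 (-2.43 ± 0.15) fell. Cdkn2c, an inhibitor of the cyclin D kinases, rose (176 ± 7.96 TPM at Day4 and 50.8 ± 2.33 TPM in Control), as did the antiproliferative genes Tob1 (1.91 ± 0.10) and Mxi1 (2.10 ± 0.10). Cdkn1a (p21), a kinase inhibitor, read 9.01, 1.58 and 10.4 TPM in the Day4 libraries, against 21.5, 15.3 and 14.3 TPM in the Control libraries and was not called (log2 fold change -1.42, adjusted p = 0.0544). It was called lower without Day4 replicate 1 (-1.71, adjusted p = 0.0401), replicate 2 (-0.74, adjusted p = 0.014) or replicate 3 (-1.81, adjusted p = 0.0298), or without genes listed at 0 in 1 library (adjusted p = 0.0483), and the adjusted p over all alternatives ran from 0.014 to 0.153.

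Windows of 4 division genes, chosen as above, carry sequences known from cell cycle promoters. In Uhrf1, a partner of Dnmt1 (13.5 ± 4.34 TPM at Day4 and 128 ± 3.26 TPM in Control, with 15.4% of stretches shared), and in Dnmt1 the capitals mark an E2F-type sequence, TTTNNCGC on either strand. The match starts 56 bases before the start of Uhrf1. In Dnmt1 the matches, 219 and 217 bases before the RefSeq start used, overlap. Genes can have several starts, and whether transcripts from another start cover this window was not tested. In Mki67 and Kif11, a kinesin of the spindle (8.14 ± 1.04 TPM at Day4 and 84.7 ± 4.16 TPM in Control), they mark TTTGAA, the core of the cell cycle homology region, and CCAAT, both on either strand.
Uhrf1, chr17:56303087-56303336, plus strand: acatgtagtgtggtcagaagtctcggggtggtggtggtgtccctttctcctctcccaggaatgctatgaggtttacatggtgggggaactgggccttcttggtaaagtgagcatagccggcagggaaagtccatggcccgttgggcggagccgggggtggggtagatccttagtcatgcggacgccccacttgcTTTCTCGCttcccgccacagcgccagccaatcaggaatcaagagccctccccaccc
Dnmt1, chr9:20952624-20952873, minus strand: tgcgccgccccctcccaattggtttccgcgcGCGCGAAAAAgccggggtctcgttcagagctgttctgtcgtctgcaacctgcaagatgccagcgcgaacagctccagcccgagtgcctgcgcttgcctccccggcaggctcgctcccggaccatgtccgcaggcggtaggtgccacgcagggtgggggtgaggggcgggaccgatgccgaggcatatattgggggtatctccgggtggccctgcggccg
Mki67, chr7:135716380-135716629, minus strand: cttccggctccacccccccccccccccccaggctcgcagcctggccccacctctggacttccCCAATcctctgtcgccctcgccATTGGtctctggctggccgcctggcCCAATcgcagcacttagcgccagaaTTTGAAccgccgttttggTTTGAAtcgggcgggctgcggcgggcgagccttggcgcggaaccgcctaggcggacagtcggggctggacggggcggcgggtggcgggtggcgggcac
Kif11, chr19:37376132-37376381, plus strand: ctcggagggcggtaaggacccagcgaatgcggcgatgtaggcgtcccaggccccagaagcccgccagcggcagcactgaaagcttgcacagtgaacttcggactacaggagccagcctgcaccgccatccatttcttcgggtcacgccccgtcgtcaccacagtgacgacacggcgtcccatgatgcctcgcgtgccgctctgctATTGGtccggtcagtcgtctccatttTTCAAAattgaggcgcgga
The E2F-type sequence was in 12 of 55 replication windows (21.8%), 7 of 50 mitosis windows (14%) and 4.28% of all windows. TTTGAA was in 16 of 50 mitosis windows (32.0%), 7 of 55 replication windows (12.7%) and 16% of all windows. CCAAT was in 37 of 50 mitosis windows (74.0%), 31 of 55 replication windows (56.4%), 14 of 25 contractile windows (56.0%) and 33.8% of all windows. The 55 replication windows came from 45 genes and the 50 mitosis windows from 46. Base composition of the windows was not matched, and none of these shares was tested.

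Several lists of general cell function changed less or in both directions. Of all genes 30.1% rose and 41.9% fell. In cholesterol synthesis and uptake 16 of 24 tested genes fell and 5 rose (median -0.55, -0.41 relative to all genes). Sc5d, a late enzyme of the pathway, fell (-1.72 ± 0.06), whereas Abca1, the exporter of cholesterol, averaged 34.6 ± 5.30 TPM at Day4 and 4.01 ± 1.09 TPM in Control (8.62-fold), and Cyp51 (1.54 ± 0.04) and Insig1 (1.28 ± 0.06) rose. Clock genes included 8 of 16 higher and 6 lower, with Per1 higher (1.72 ± 0.11) and the repressors Nr1d1 (-1.61 ± 0.09; its position overlaps Thra) and Nr1d2 (-1.95 ± 0.08) lower. Of 60 ribosomal protein genes 27 rose, 8 fell and 25 were not called (median 0.10). Under median-ratio scaling 37 rose and 3 fell (median 0.24), and under quantile normalization 21 rose and 16 fell (median 0.01).

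Stress and defence genes likewise divided, where 30.1% of all genes rose and 41.9% fell. In the unfolded protein and integrated stress list 8 of 27 rose and 9 fell (median -0.03), against 11 and 5 under median-ratio scaling (median 0.11) and 10 and 7 under quantile normalization. Xbp1, a factor of the secretory pathway, read 177, 192 and 108 TPM in the Day4 libraries, against 27.4, 54.5 and 47.2 TPM in the Control libraries, while the amino acid response genes Chac1 (-1.91 ± 0.07), Asns (-1.29 ± 0.04) and Trib3 (-1.25 ± 0.06) fell. Of 33 antioxidant genes 11 rose and 14 fell (median -0.05), near the shares of all genes. Under median-ratio scaling 13 rose and 9 fell (median 0.07). Cat (catalase) averaged 299 ± 2.64 TPM at Day4 and 70.0 ± 1.75 TPM in Control (4.27-fold) and Sod1 2099 ± 105 TPM at Day4 and 658 ± 16.7 TPM in Control (3.19-fold), while Nqo1, a quinone reductase, averaged 26.9 ± 0.0715 TPM at Day4 and 166 ± 3.89 TPM in Control (6.17-fold lower). Interferon and antigen presentation genes rose in 14 of 23 and fell in 4, with Tap2, of the peptide transporter, at 46 ± 1.74 TPM at Day4 and 8.96 ± 0.741 TPM in Control. Of 16 genes of caveolae, carbonic anhydrases and aquaporins 9 rose and 6 fell (median 0.25). Aqp1, a water channel, fell (26.6 ± 2.38 TPM at Day4 and 532 ± 8.18 TPM in Control), whereas Aqp7, the glycerol channel of fat cells, was listed at 0 in Control and read 8.34, 9.05 and 7.89 TPM at Day4, and Car5b, a mitochondrial carbonic anhydrase, rose (3.83 ± 0.06). Of 19 common reference genes 6 rose and 11 fell, among them Polr2a (-1.35 ± 0.06) and Tbp (-1.0 ± 0.11), and their median relative to all genes was -0.02, where 71.9% of all genes were called. Under quantile normalization the median of the reference genes was -0.46 and that of all genes -0.05.

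Placed among the 6 stages, Day4 lay between MCE2 and Day8 for Cebpa and Adipoq and had the highest mean of any stage for Cebpd. In a fit of all 18 libraries 21 of 28 tested panel genes were called between Day4 and MCE2, where 53.0% of all genes were, and 24 of 28 between Day4 and Day8, where 45.8% were. Cebpa averaged 3.57 ± 0.356, 19.3 ± 1.85, 113 ± 17.2, 182 ± 19, 351 ± 34.3 and 405 ± 96.8 TPM in Control, MCE1, MCE2, Day4, Day6 and Day8 (SD, n = 3 each), and Day4 lay above MCE2 (log2 fold change 0.69, adjusted p = 0.0015) and below Day8 (-1.12, adjusted p = 2.51e-05). Cebpd averaged 23.2 ± 0.796, 147 ± 1.53, 210.0 ± 13.4, 228 ± 6.56, 68.8 ± 6.90 and 44.6 ± 3.45 TPM in the same order. Its Day4 level was not called against MCE2 (adjusted p = 0.181) and stood above Day8 (2.33, adjusted p = 1.54e-12). Cebpb was lower at Day4 than at MCE2 (-0.96, adjusted p = 0.000133).

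Of the fat cell genes, Adipoq was higher at Day4 than at MCE2 (4.47) and lower than at Day8 (-1.40), with Day8 libraries of 3518, 3637 and 3626 TPM. Scd1 read 5621, 6513 and 5263 TPM at Day8 (Day4 minus Day8 -2.45), Slc2a4 160.5, 170.3 and 164 TPM (-2.36) and Pck1 139, 101 and 86.6 TPM (-4.87). Leptin read 6.49, 5.09 and 4.06 TPM at Day8, above every Day4 library. Cidec went the other way, being higher at Day4 than at Day8 (0.67, adjusted p = 0.00327; not called with a pseudocount of 0.1). Acta2 at Day4 was not called against MCE2 (-0.23, adjusted p = 0.221) and lay below Day8 (-1.54), and Col1a1 lay above MCE2 (1.83) and below Day8 (-0.84). Mki67 was lower at Day4 than at MCE2 (-1.57) and higher than at Day8 (0.44; not called when only these 6 libraries were fitted), while the Day6 libraries in between read 14.3, 17.6 and 13.6 TPM, above every Day4 library. These contrasts share the Day4 libraries with the comparison against Control.

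**Figure D5:**
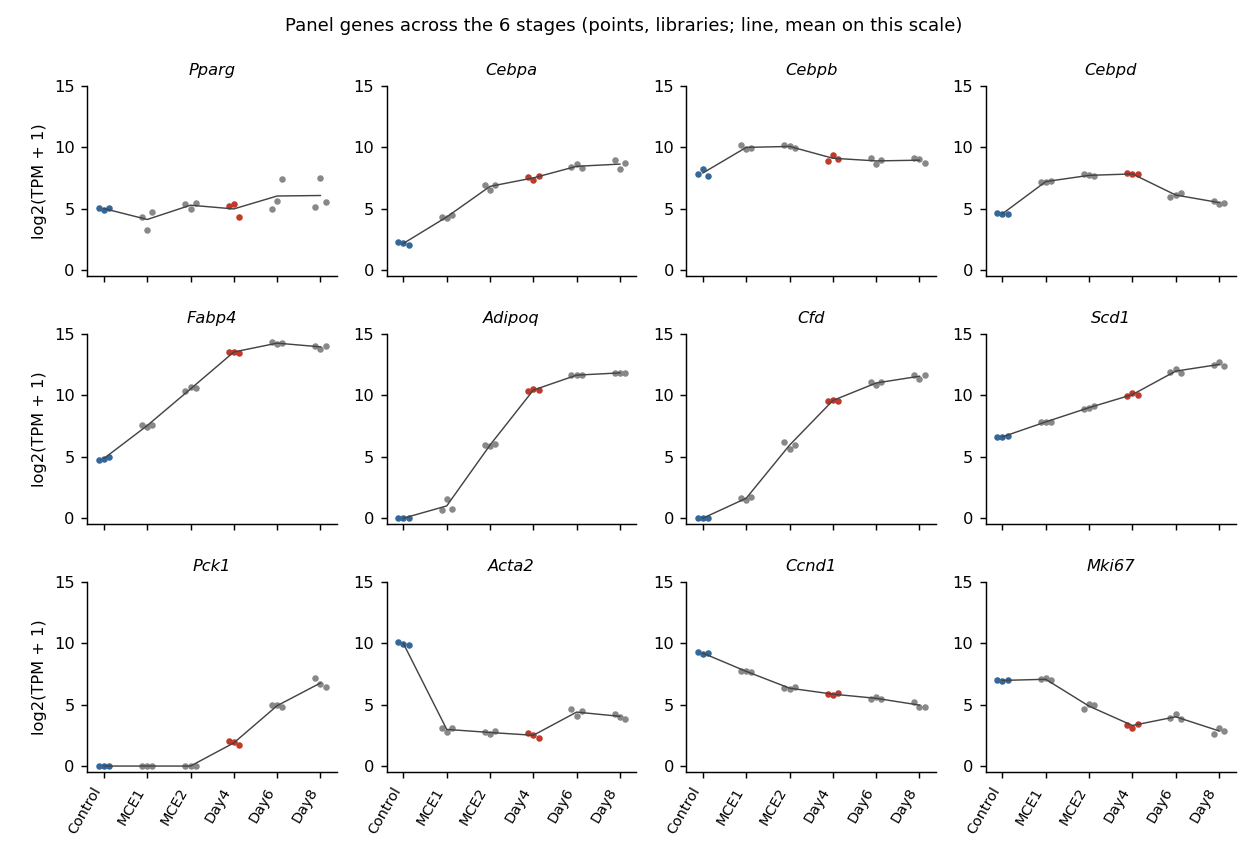
Log2(TPM + 1) of 12 panel genes in the 18 libraries, with points for libraries (Control blue, Day4 red, other stages grey) and a line through the mean of 3 on this scale. Stages stand in the order of the sample list, Control to Day8, and the labels give no times for Control, MCE1 and MCE2. Adipoq and Cfd climb from 0 in Control to high values at Day4 and beyond, Cebpd is highest at MCE2 and Day4, and Acta2 is far below Control in every other stage.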

How the data were processed

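Polyadenylated RNA of 3T3-L1 cultures was sequenced, and the authors deposited 1 file per library with TPM per gene. FastQC, cutadapt, HISAT2 and StringTie and the mm9 build are named in the submitters' processing notes, without versions; the annotation and filters are not given in the sources used here, and the library kit does not mark strand. Read depth is unknown, so no interval or floor from counts is given, and precision rests on the 3 libraries per group.

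The members and lists were chosen with earlier results of these data known. From the deposited TPM, 12 gene names listed at another locus in Control replicate 1 were left out. That file alone also lacks the chr prefix, and 633 genes (399 tested) have a recorded end that differs among the 6 files; whether another annotation was used is not given in the sources used here. The 11946 genes that reached 1 TPM in 3 or more of the 6 libraries were tested on the log2 scale, log2(TPM + 1), of the deposited values, without further scaling; 423 passed through Day4 alone and 281 through Control alone. limma 3.58.1 in R 4.3.3 (robust, with a mean-variance trend, 4 residual and, in the median, 2.91 prior degrees of freedom) gave SEs and p-values, adjusted by Benjamini-Hochberg; calls have an adjusted p under 0.05. MCE2 and Day8 were compared with Day4 in a fit of all 18 libraries. Named genes are a panel of 32, the 12 highest and 12 lowest called genes with at least 10 TPM and no overlap, and per list up to 5 called members by size and up to 3 that moved against the majority; other genes named were chosen after their values were seen. Alternatives changed the pseudocount, filter, scaling, model, gene set and libraries. Shared stretches of 50 bases were counted in GENCODE transcripts, and promoter windows are from RefSeq GRCm38.p6. Tables and figures used Python 3.11.15, pandas 2.3.3, numpy 2.4.6 and matplotlib 3.10.9.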

Additional observations from a re-analysis of the deposited data

How the results depend on the processing

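Of 284 named genes 233 had the same call under every alternative, 12 changed a call under an alternative other than the fold rule, and Pparg, at -0.03, reversed to 0.29 without Day4 replicate 3, over a range of -0.21 to 0.29 as single libraries were left out. With a log2 fold change of at least 1 required as well, 1513 genes were higher and 1878 lower, 3391 in all. Leaving out 1 library at a time gave 7986 to 8367 called genes, 3314 to 3483 higher and 4603 to 4895 lower. Median-ratio scaling gave 4228 higher and 4294 lower and quantile normalization 4092 and 4481; the causes of these shifts were not tested. Same-numbered Day4 and Control libraries did not deviate together (r of deviations 0.0033, 0.0191 and 0.0181), and a replicate block gave 3551 higher and 4960 lower genes, 8511 called, Dlk1 (adjusted p = 0.0136) and Cdkn1a (adjusted p = 0.0351) among the lower ones. Of the higher and lower counts of gene lists recomputed under the alternatives, 1436 held within 1.5 times and 94 did not. Against MCE2, 21 to 22 of 28 panel genes were called, and against Day8 22 to 24. Depth is unknown, and a gene listed at 0 may be a failed estimate, which limits statements on genes at 0.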

Other observations

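Pparg spread more within the later stages than within Control. It read 31.4, 49.2 and 174 TPM in the Day6 libraries and 35.4, 183.9 and 45.2 TPM in the Day8 libraries, against 33, 29.5 and 32.1 TPM in the Control libraries, and 1 library of each later stage stood far above the other two. In the same libraries Fabp4, a gene that PPAR gamma is known to bind near, read 20216, 17897 and 19604 TPM at Day6 and 15915, 14156 and 16814 TPM at Day8, without a library that stood apart in the same way. Cebpb was at its highest mean at MCE2 (1076 ± 71.2 TPM), against 558 ± 96.8 TPM at Day4 (SD, n = 3 each).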
